A study of Mus musculus with 9 samples.

Results

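The genes described here encode the proteins of the cytosolic ribosome, the particle of RNA and protein that translates messenger RNA. Members were taken by name: gene probes named Rpl or Rps followed by a digit, or named Rplp0, Rplp1, Rplp2 or Rpsa, without the Rps6 kinases and pseudogene names. The rule found 82 genes with 137 probes among the 41174 gene probes of the array, and 81 of the 82 genes were among the 16797 genes tested. Of these 81, 45 encode core proteins of the large subunit and 31 core proteins of the small subunit. The set also held 4 paralogues of core genes and Rps19bp1, whose product binds Rps19 and is not itself a ribosomal protein.

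RNA came from liver lobe A of male C57BL/6 mice aged 3 months, with 3 arrays in each of 3 groups. The first group was untreated wild-type mice (replicates 2, 3 and 4), the second received AAV-GFP, and the third received AAV-hGRβ (replicates 1, 2 and 3 of each). AAV is adeno-associated virus, a gene delivery vector; GFP, green fluorescent protein, served as its control cargo, and hGRβ is the beta isoform of the human glucocorticoid receptor. The comparison with AAV-GFP asks what the isoform adds in liver, and AAV-GFP against untreated liver gives the change that goes with the vector and its control cargo. The promoter, dose and time after treatment are not given in the sources used here, nor is it stated that replicates are separate animals. Every p-value therefore measures the spread between these samples, which may be technical.

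Ribosomal protein genes are transcribed at high and coordinated rates, because every ribosome needs nearly all of these proteins in equal numbers. Their messages typically begin with a C followed by a run of pyrimidines, the 5′ terminal oligopyrimidine tract, through which mTORC1 and LARP1 set their translation. Ribosomal proteins not bound in ribosomes, Rpl5 and Rpl11 foremost, bind Mdm2 and so raise p53. In liver, ribosome content follows feeding, growth and regeneration.

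The RefSeq start-site windows of assembly GRCm38.p6 were searched for such starts. Windows of 300 bases, from 250 before to 50 after each annotated start, were found for 62 of the 82 genes, 73 windows in all. Below, 50 bases are printed for 6 genes whose array values are described later and for Rpl35, shown for the length of its run, 30 before the annotated start and 20 from it on. Capitals mark the unbroken run of C and T that holds the first transcribed base or, for Rpl22l1, the letters TATAAA.
Rps6 (chr4:86857348-86857397, minus strand): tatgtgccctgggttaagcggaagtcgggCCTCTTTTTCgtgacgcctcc
Rps27 (chr3:90213629-90213678, minus strand): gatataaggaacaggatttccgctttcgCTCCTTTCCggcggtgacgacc
Rplp2 (chr7:141447621-141447670, plus strand): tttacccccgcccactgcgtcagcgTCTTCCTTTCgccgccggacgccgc
Rpl28 (chr7:4792935-4792984, plus strand): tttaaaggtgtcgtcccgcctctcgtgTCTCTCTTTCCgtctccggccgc
Rpl35 (chr2:39005112-39005161, minus strand): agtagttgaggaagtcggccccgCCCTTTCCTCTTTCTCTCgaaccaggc
Rpl22l1 (chr3:28805478-28805527, plus strand): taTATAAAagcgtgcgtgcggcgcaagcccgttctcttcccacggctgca
Rpl4 (chr9:64173357-64173406, plus strand): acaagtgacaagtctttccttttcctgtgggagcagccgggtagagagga

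In Rps6, Rps27, Rplp2, Rpl28 and Rpl35 the annotated first base is a C inside a run of 9 to 18 pyrimidines, and in Rpl22l1 and Rpl4 it is a G. A C at the start followed by pyrimidines for at least 5 bases stood in 13 of the 73 member windows (17.8%) and in 2.5% of all 32851 windows, so most member windows lack it and the printed ones hold it more often than the family. Searched on both strands, CCGGAAG stood in 34.2% of member windows and 8.9% of all windows, CTTTCC in 50.7% and 26.6%, and GCCATCTT in 11% and 2.7%. TATAAA was found in 9.6% of member windows and 13.6% of all windows. CTTTCC can overlap the pyrimidine run itself. These matches describe letters in the annotated windows, and an annotated start can lie some bases from the start used in liver.

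No ribosomal protein gene passed the test in any of the 3 comparisons. Values are log2 signal relative to each array's own 75th percentile, and differences of group means were tested with limma at a Benjamini-Hochberg adjusted p of 0.05 over all genes tested. Between AAV-hGRβ and AAV-GFP 0 of 81 members were called, where 0.899% of all genes were (138 higher, 13 lower). Between AAV-GFP and untreated liver 0 members were called, as were 0% of all genes by limma, with 1649 of all genes at an unadjusted p under 0.05. Between AAV-hGRβ and untreated liver 0 members were called, where 3.27% of all genes were (419 higher, 130 lower). At an unadjusted p of 0.05 by limma, 2, 9 and 5 members lay beyond the threshold in the 3 comparisons in that order, where 11.7%, 9.82% and 25.5% of all genes did. The smallest adjusted p of a member by limma was 0.369, 0.489 and 0.127. The median standard error of a member's difference was 0.32 on the log2 scale (range 0.16 to 0.53), and the number of arrays limits this precision.

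Most members nevertheless lay above 0 in the comparisons with untreated liver. From untreated to AAV-GFP all 81 differences were above 0, with a median of 0.58 (range 0.07 to 0.92), beside a median of 0.04 over all genes tested. The 540 other genes of a brightness like that of most core members had a median of 0.26 there, with 450 above 0. From untreated to AAV-hGRβ 74 were above 0 and 7 below, with a median of 0.50 against 0.09 for all genes and 0.13 for those of like brightness. From AAV-GFP to AAV-hGRβ 16 were above and 65 below, with a median of -0.08 against 0.02 for all genes. The 540 genes of like brightness lay lower there, with a median of -0.16 (123 above 0, 417 below). Of the members, 49 were above and 32 below with quantile normalization, and 80 above and 1 below with normexp background correction. With arrays centred on their medians, 55 were above and 26 below from untreated to AAV-hGRβ, where the median of all genes was -0.24. From untreated to AAV-GFP 74 were above with quantile normalization and 75 with normexp, and the median was 0.31 without AAV-GFP replicate 3. The 2 comparisons with untreated liver share its 3 arrays, and each pair of comparisons shares a group, so these are not separate observations.

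**Figure D1:**
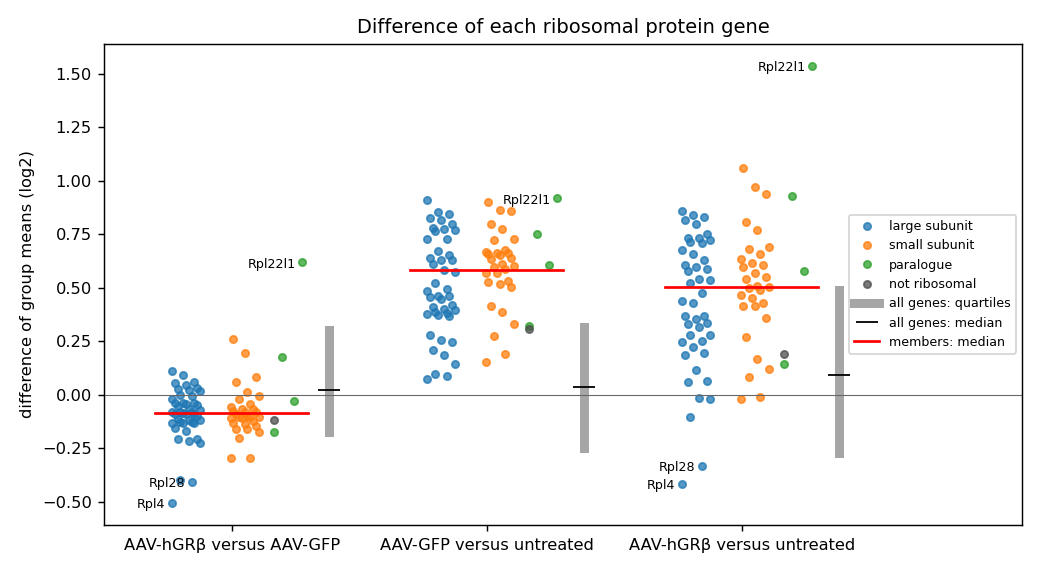
Difference of group means on the log2 scale for each of the 81 members in the 3 comparisons, coloured by class (the grey point is Rps19bp1). The red line is the members' median, and the grey bar and black tick give the quartiles and the median of all genes tested. All 81 members sit above 0 for AAV-GFP against untreated liver and 74 for AAV-hGRβ against untreated liver, while Rpl4 and Rpl28 lie lowest and Rpl22l1 highest where labelled. None passed the test, and under normexp background correction Rpl4 and Rpl28 turn above 0 in both comparisons with AAV-hGRβ and below 0 for AAV-GFP against untreated liver. With normexp whose bright local backgrounds were replaced, Rpl4 and Rpl28 stay below 0 in both comparisons with AAV-hGRβ.

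The signal of nearly every member rose and fell together from array to array, and arrays of the same group did not stay together. Each member's value was set against its own mean over the 9 arrays, and the median of these deviations was 0.28 on untreated replicate 2, -0.60 on replicate 3 and -0.71 on replicate 4. The medians were -0.19, 0.12 and 0.70 on AAV-GFP replicates 1, 2 and 3, and -0.09, 0.45 and 0.06 on AAV-hGRβ replicates 1, 2 and 3. Untreated replicate 2 therefore lay among the treated arrays and well above the other two untreated arrays. AAV-GFP replicate 3 was the highest array for 72 members, and untreated replicate 4 was the lowest for 66. Over all genes tested the same medians stayed between -0.09 and 0.09. For the 540 other genes of like brightness they ran from -0.29 on untreated replicate 3 to 0.33 on AAV-GFP replicate 3. For 48 respiratory chain subunits they ran from -0.63 to 0.59 on the same arrays.

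**Figure D2:**
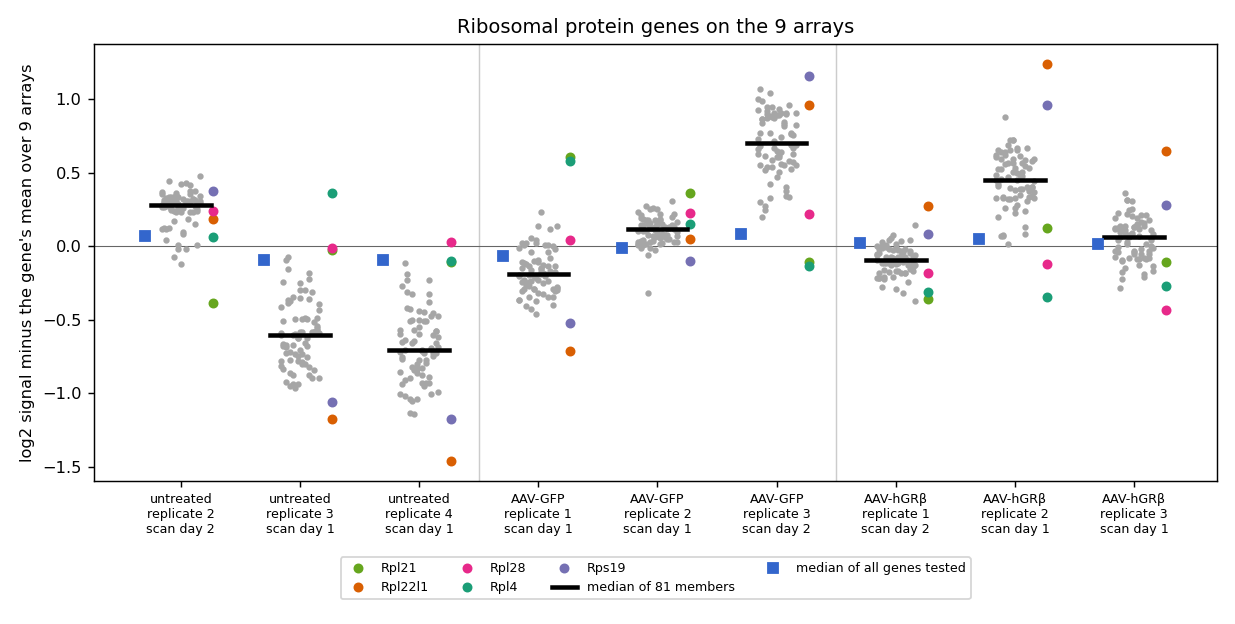
Each grey point is a member's log2 signal minus that gene's mean over the 9 arrays, with 1 column per array and its group, replicate and scan day underneath. Black bars give the members' median and blue squares the median of all genes tested. The members are low on untreated replicates 3 and 4 and high on AAV-GFP replicate 3, whereas Rpl4, Rpl21 and Rpl28 depart from the others.

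Across the 9 arrays the mean correlation between pairs of members was 0.84, and it was 0.87 after the group means were removed. It was 0.92 within the small subunit and 0.79 within the large subunit. Among other genes it was 0.02 over all genes tested, 0.40 for the 540 other genes of like brightness, 0.56 for 78 mitochondrial ribosomal proteins and 0.91 for 48 respiratory chain subunits. These correlations are descriptions over 9 arrays that share their scaling, so each array enters every pair. Among the members, 68 of 81 correlated above 0.9 with the mean of the other core members, as did 1354 of all 16797 genes tested with the core mean. Rps16, in the small subunit, stood highest at 0.998, then Rpl26 of the large subunit.

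The common movement also went with the arrays' own brightness at the extremes, though not on every array. Member values are relative to each array's 75th percentile, so some inverse relation to it is built in. The 75th percentile of intensity was lowest on AAV-GFP replicate 3 (337.3), where the members were highest. It was highest on untreated replicates 3 (627.2) and 4 (600.8), where they were lowest. AAV-hGRβ replicate 3 (583.2) was brighter than AAV-GFP replicate 1 (523.5), yet the members lay higher on it (0.06 against -0.19). Without any scaling between arrays the members' median deviations were 0.06, -0.25 and -0.41 on untreated replicates 2, 3 and 4. They were then -0.09, 0.09 and 0.17 on AAV-GFP replicates 1, 2 and 3, and -0.01, 0.15 and 0.32 on AAV-hGRβ replicates 1, 2 and 3. Untreated replicates 3 and 4 remained the 2 lowest arrays without scaling, while the highest became AAV-hGRβ replicate 3. Over all genes the unscaled median was 0.26 and 0.20 on untreated replicates 3 and 4, -0.45 on AAV-GFP replicate 3 and 0.27 on AAV-hGRβ replicate 3. The part of array brightness in the members' differences was not tested.

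The arrays were scanned on 2 days. Day 1 held untreated replicates 3 and 4, AAV-GFP 1 and 2, and AAV-hGRβ 2 and 3, with each group on a slide of its own; day 2 held 1 array of each group. Within day 1 the members' median difference between AAV-hGRβ and AAV-GFP was 0.30 (71 above 0, 10 below), and within day 2 it was -0.80 (0 above, 80 below). In that day 2 comparison both arrays lay on the same slide. Rpl3 had no usable spot on AAV-GFP replicate 3 and is missing from that count. Of the 80 members measured on both days, 70 had opposite signs on the 2 days, 10 were lower on both and 0 were higher on both. The 540 other genes of like brightness had medians of 0.02 within day 1 (277 above 0, 263 below) and -0.46 within day 2 (63 above, 472 below).

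Between AAV-hGRβ and untreated liver the median was 0.94 within day 1 (78 above 0, 3 below) and -0.37 within day 2 (4 above, 77 below). For the 540 genes of like brightness it was 0.32 (395 above, 145 below) and -0.30 (67 above, 473 below). Limma on the day 1 arrays alone, with 2 arrays a group, called 52 of the 81 members higher and 0 lower, where 17.4% of all genes tested were called higher. Rps6, a small subunit protein and the classic target of S6 kinase, was among them, with a difference of 0.99 on day 1 and -0.49 on day 2. On day 1 the slide and the group cannot be told apart, nor can they on day 2 for untreated against treated liver. Day 2 has no test. Without untreated replicate 2, 3 members were called higher by limma (Rplp0, Rps24 and Rpl22l1), where 8.26% of all genes tested were.

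AAV-GFP and untreated liver differed the same way on both days, but on each day their arrays lay on separate slides, so slide and group cannot be told apart. The median was 0.64 within day 1 (81 above 0, 0 below) and 0.46 within day 2 (75 above, 5 below), and 75 of the 80 members measured on both days were higher on both. For the 540 genes of like brightness the medians were 0.34 (471 above, 69 below) and 0.15 (365 above, 170 below). Limma on the day 1 arrays called 0 members in this comparison, and the smallest adjusted p of a member there was 0.126.

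**Figure D3:**
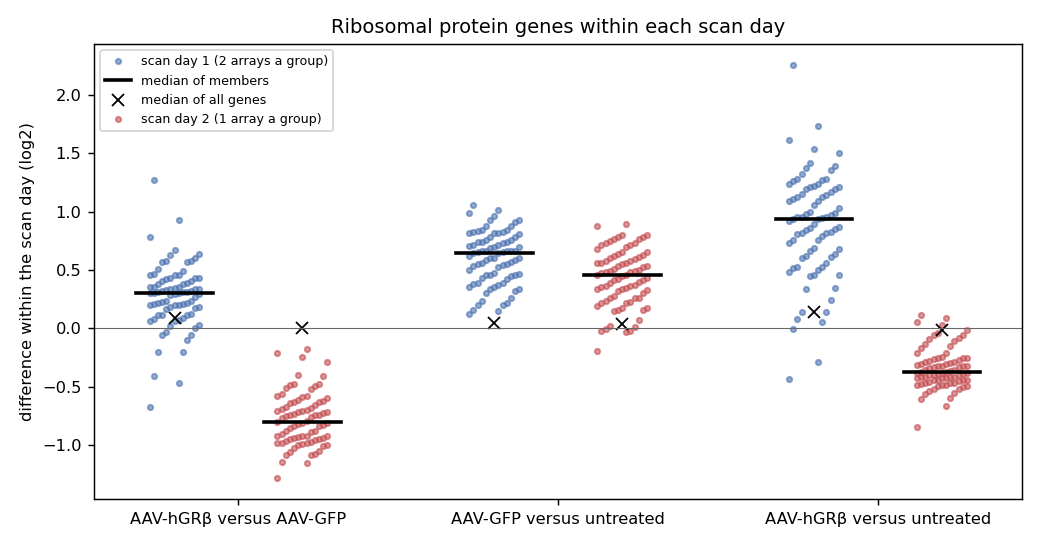
Log2 difference of each member within scan day 1 (blue, 2 arrays a group) and scan day 2 (red, 1 array a group). Black lines give the members' median and crosses the median of all genes tested. The members' median changes side of 0 between the days in both comparisons with AAV-hGRβ. For AAV-GFP against untreated liver it is above 0 on both days, with 5 members below 0 on day 2.

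Rps6 showed the common pattern. Its values were 6.74, 5.76 and 5.61 on untreated replicates 2, 3 and 4, then 6.39, 6.55 and 7.20 on AAV-GFP replicates 1, 2 and 3, and 6.26, 6.90 and 6.46 on AAV-hGRβ replicates 1, 2 and 3. Untreated replicate 2 lay inside the range of both treated groups, so the groups overlapped. Its mean was 6.04 ± 0.62 in untreated liver, 6.71 ± 0.43 with AAV-GFP and 6.54 ± 0.33 with AAV-hGRβ (SD, n = 3). The difference from AAV-GFP to AAV-hGRβ was -0.17 (95% interval -0.96 to 0.61).

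Rpl5 and Rpl11, the large subunit pair that binds Mdm2, moved with Rps6 from array to array. Rpl5 was 7.86, 7.0 and 6.75 on the untreated arrays, 7.69, 7.81 and 8.51 on the AAV-GFP arrays, and 7.36, 8.25 and 7.89 on the AAV-hGRβ arrays, in replicate order. Its highest array was AAV-GFP replicate 3 and its lowest untreated replicate 4, and the groups overlapped. Its difference was 0.80 from untreated to AAV-GFP (SE 0.36, limma adjusted p 0.489) and -0.17 from AAV-GFP to AAV-hGRβ. Rpl11 differed by 0.45 and -0.09 in the same comparisons, with SE 0.33.

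Rps19, a small subunit protein mutated in Diamond-Blackfan anaemia, and Rps24 had, after Rpl22l1, the largest spread over the 9 arrays. Rps19 was 7.04, 5.61 and 5.49 on the untreated arrays, 6.14, 6.56 and 7.82 on the AAV-GFP arrays and 6.75, 7.62 and 6.95 on the AAV-hGRβ arrays. Its SDs were 0.86, 0.87 and 0.46 in the 3 groups (n = 3 each), and the groups overlapped. From untreated to AAV-hGRβ it differed by 1.06 (SE 0.53, limma adjusted p 0.235) and Rps24 by 0.94 (SE 0.44, limma adjusted p 0.211). Rps3, which lines the mRNA entry of the small subunit, differed by 0.60, Rps27a, made as a fusion with ubiquitin, by 0.77, and Rpl13a by 0.71. None of these passed. Rps19bp1 differed by 0.19.

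The stalk of the large subunit, which recruits elongation factors, is formed by Rplp0, Rplp1 and Rplp2. Rplp1 differed by 0.37 from untreated to AAV-GFP and by -0.12 from AAV-GFP to AAV-hGRβ, and Rplp2 by 0.38 and -0.07. Rplp0 was 4.59, 3.77 and 3.58 on the untreated arrays, 4.74, 4.72 and 5.01 with AAV-GFP, and 4.43, 5.0 and 4.69 with AAV-hGRβ. All AAV-GFP values lay above all untreated ones, while AAV-hGRβ replicate 1 fell below untreated replicate 2. The difference from untreated to AAV-GFP was 0.84 (SE 0.28), the smallest p among members in that comparison, with a limma adjusted p of 0.489. This probe, however, is placed on chromosome 8 by the array's annotation, whereas the Rplp0 gene lies on chromosome 5. Of 80 members with both positions it was the 1 whose chromosomes differed, so its signal may come from a near-identical copy. The brighter of the probes that the array lists under the older name Arbp, and that RefSeq assigns to Rplp0, gave 0.47 (SE 0.30) in that comparison and -0.06 from AAV-GFP to AAV-hGRβ.

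Besides Rplp0, the values of Rpl10a, Rpl7l1 and Rps4x in the AAV-GFP group lay wholly above the untreated ones, 4 members in all, where 5.69% of all genes tested did so. Rps4x is singled out here after its values were seen. No member lay wholly below, where 9.21% of all genes did. Rpl10a, of the large subunit, was 5.19, 4.58 and 4.35 in untreated liver and 5.23, 5.34 and 5.87 with AAV-GFP, a difference of 0.78 (SE 0.28). Rps12 and Rps15, both of the small subunit, differed by 0.72 and 0.67, each with a limma adjusted p of 0.489. Rpsa, the small subunit protein also known as a laminin receptor, differed by 0.42.

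From untreated to AAV-hGRβ, 3 members lay wholly higher (Rpl22l1, Rps12 and Rps4x), where 14.7% of all genes tested did, and 2 wholly lower (Rpl28 and Rpl4), where 14.6% did. From AAV-GFP to AAV-hGRβ no member lay wholly higher, where 9.44% of all genes did, and 2 lay wholly lower (Rpl28 and Rpl4), where 6.46% did. As shares of 81 members, each of these counts lies below the share over all genes.

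Rpl28 and Rpl4, both of the large subunit, did not follow the other members. Rpl28 was 6.85, 6.60 and 6.64 on the untreated arrays, 6.65, 6.83 and 6.83 with AAV-GFP and 6.43, 6.49 and 6.18 with AAV-hGRβ. All 3 AAV-hGRβ arrays lay below the other 6, and untreated replicates 3 and 4, low for most members, were not low here. The difference from AAV-GFP was -0.41 (SE 0.16, 95% interval -0.78 to -0.04, limma adjusted p 0.369), and it was -0.41 within day 1 and -0.40 within day 2. Its correlation with the mean of the other core members was 0.21.

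Rpl4 was 3.53, 3.83 and 3.37 on the untreated arrays, 4.05, 3.62 and 3.34 with AAV-GFP, and 3.16, 3.13 and 3.20 with AAV-hGRβ. The AAV-hGRβ arrays lay close together below the other 6, and AAV-GFP replicate 3 was the lowest of its group, the reverse of most members. It differed from AAV-GFP by -0.51 (SE 0.21, 95% interval -0.99 to -0.02, limma adjusted p 0.406), -0.67 within day 1 and -0.18 within day 2. Its correlation with the other core members was -0.39. Rpl28 and Rpl4 were among the members lower with AAV-hGRβ on both days against both other groups. Under normexp background correction the differences of Rpl28 and Rpl4 from AAV-GFP turned to 0.33 and 0.13. With normexp whose bright local backgrounds were replaced, an alternative chosen after seeing the data, they were -0.365 and -0.484.

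**Figure D4:**
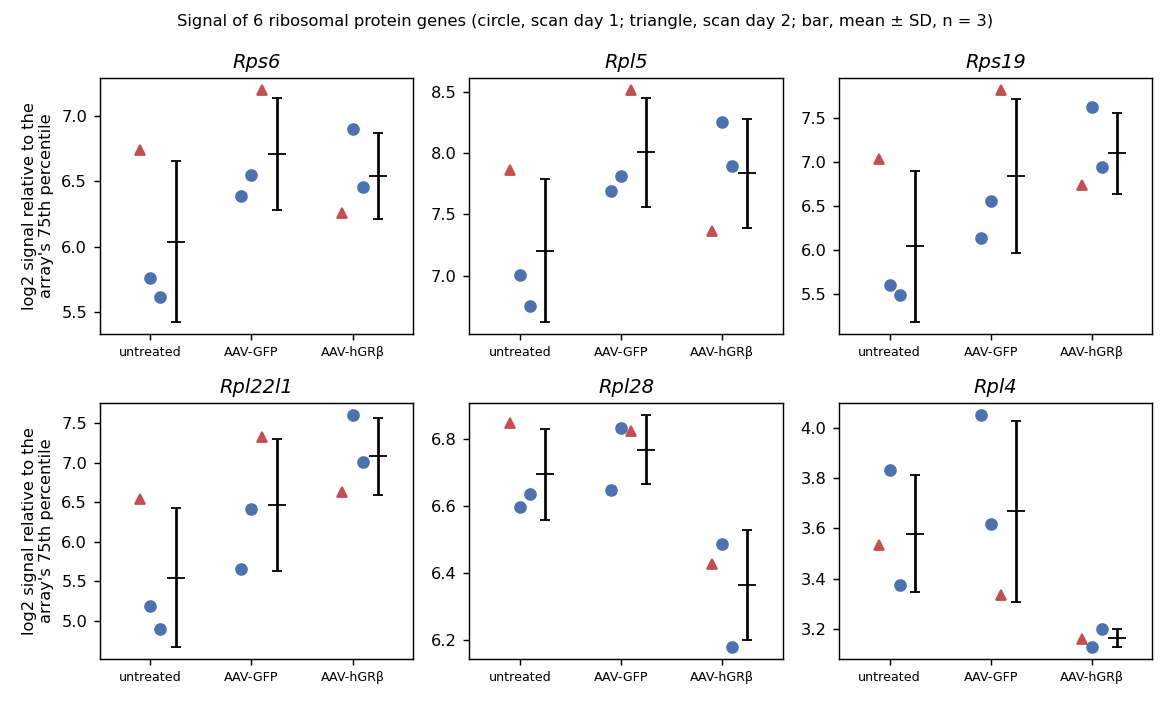
Log2 signal relative to the array's 75th percentile for 6 members in the 3 groups, with circles for scan day 1, triangles for scan day 2 and the mean ± SD (n = 3) beside them. Each panel has its own axis, and signals of different probes are not comparable. Rps6, Rpl5, Rps19 and Rpl22l1 have their lowest circles in untreated liver, and the AAV-hGRβ points of Rpl28 and Rpl4 lie below those of the other groups, an order of means that turns under normexp background correction. With normexp whose bright local backgrounds were replaced, the AAV-hGRβ means of Rpl28 and Rpl4 stay lowest.

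The array's own probe sequences are shown to set members that followed the common pattern beside the 2 that did not. The 60-base probes below stand for Rpl26, Rps6 and Rpl22, which followed it, and for Rpl28 and Rpl4, and each holds a reading frame free of stop codons. Positions are those of the array's annotation on build mm7, and no base is set in capitals.
Rpl26 (chr11:68984820-68984879): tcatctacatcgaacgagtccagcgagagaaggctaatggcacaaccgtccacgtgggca
Rps6 (chr4:86259708-86259899, across a splice junction): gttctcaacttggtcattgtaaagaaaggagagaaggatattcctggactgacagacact
Rpl22 (chr4:151319591-151319650): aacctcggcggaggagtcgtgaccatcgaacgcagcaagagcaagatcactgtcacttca
Rpl28 (chr7:4367685-4367744): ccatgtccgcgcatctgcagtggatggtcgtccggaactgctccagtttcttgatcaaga
Rpl4 (chr9:64203185-64203244): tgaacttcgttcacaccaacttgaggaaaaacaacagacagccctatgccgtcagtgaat

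Their GC content was 55.0% for Rpl26, Rpl22 and Rpl28, 45.0% for Rpl4 and 41.7% for Rps6, and none shared a stretch of 25 bases with another probe. Rpl28 also begins with a pyrimidine run, as printed above, so the 13 genes with such a start did not all move alike. Over those 13 genes the range across the 9 arrays had a median of 1.59 (lowest 0.67), against 1.44 (lowest 0.49) in 48 genes whose windows lacked one. Their median difference from untreated to AAV-GFP was 0.65 and 0.59.

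The probes that stood for Rpl21, Rpl23 and Rps26 also followed the pattern weakly, with correlations of -0.06, 0.70 and 0.75. The dimmer kept probes of Rpl21 and Rpl23 correlated at 0.65 and 0.92, so for these genes the correlation depended on the probe. Rpl23 and Rps26 were also among the members with the smallest spread over the 9 arrays, with SDs of 0.19 and 0.20. From AAV-GFP to AAV-hGRβ they differed by -0.20 and -0.29, and Rpl21 by -0.40 (SE 0.23, limma adjusted p 0.573). The probe that stood for Rpl21 was annotated to a predicted transcript and had a GC content of 75%, and the gene's dimmer probe gave 0.08.

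Several genes had more than 1 kept probe, and they did not always read alike. Of 50 second probes in 39 genes, 28 correlated above 0.9 with the mean of the other core members and 1 was below 0. That probe belonged to Rpl22, whose brighter probe correlated at 0.99 and whose dimmer probe at -0.69. From untreated to AAV-GFP the brighter probe differed by 0.61 and the dimmer by -0.25. Among the 131 kept probes, 16 shared at least 25 bases with another probe, 6 of them with a probe of another gene name. Ribosomal protein genes have many near-identical pseudogenes, so signal from such copies cannot be told apart at these probes.

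Paralogues can replace a core protein in some ribosomes. Rpl22l1, paralogue of Rpl22, had the largest spread of any member (SD 0.94 over 9 arrays). It was 6.54, 5.19 and 4.90 on the untreated arrays, 5.65, 6.41 and 7.32 with AAV-GFP and 6.63, 7.60 and 7.01 with AAV-hGRβ. All AAV-hGRβ arrays lay above all untreated ones, though untreated replicate 2 was only 0.09 below AAV-hGRβ replicate 1. The means were 5.54 ± 0.88, 6.46 ± 0.84 and 7.08 ± 0.49 (SD, n = 3).

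From untreated to AAV-hGRβ Rpl22l1 differed by 1.54 (SE 0.53, 95% interval 0.34 to 2.73, limma adjusted p 0.127). It passed limma under normexp background correction (2.07, adjusted p 0.0461, where 0.292% of all genes tested were called higher) and without untreated replicate 2 (2.04, adjusted p 0.0387). It also passed on the day 1 arrays alone (2.26, adjusted p 0.0181). It did not pass under normexp with bright local backgrounds replaced (1.53, limma adjusted p 0.0741) or with scan day as a block (1.54, limma adjusted p 0.0749). On day 2 the difference was 0.09. From AAV-GFP to AAV-hGRβ it was 0.62 (95% interval -0.57 to 1.81). Its parent Rpl22 differed by 0.61 from untreated to AAV-hGRβ and by -0.0045 from AAV-GFP to AAV-hGRβ.

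Rps27l, a paralogue of Rps27 that is also a p53 target, differed by 0.93 from untreated to AAV-hGRβ (SE 0.42, limma adjusted p 0.205) and Rps27 by 0.66. From AAV-GFP to AAV-hGRβ Rps27l differed by 0.18 and Rps27 by -0.0040, and neither passed. Rpl7l1 differed by 0.58 and Rpl7 by 0.22 from untreated to AAV-hGRβ, and Rpl36al by 0.15 and Rpl36a by 0.44. Whether paralogue and parent differed in these changes was not tested. The probe of Rpl3l, the muscle paralogue of Rpl3, was well above background on 3 of 9 arrays and was not tested, and Rpl3 differed by 0.28. Rpl10l, Rpl26l1, Rpl39l and Rps4l were not analysed here.

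Genes that work with the ribosome were compared through fixed lists. The 3 tested ribosome parts outside the naming rule had 0 members called and a median difference of 0.55 from untreated to AAV-GFP, near that of the members. Of 22 elongation factors and other messages with a pyrimidine start 0 were called, with medians of 0.27 from untreated to AAV-GFP and -0.15 from AAV-GFP to AAV-hGRβ. None was called among 27 initiation factors, 62 ribosome biogenesis genes or 15 parts of the RNA polymerase I machinery, with medians of 0.10, 0.05 and 0.20 from untreated to AAV-GFP. At an unadjusted p under 0.05 by limma, 6 initiation factors, 11 biogenesis genes and 1 polymerase I gene lay beyond the threshold from untreated to AAV-hGRβ, each a smaller share than the 25.5% of all genes. The mTORC1 and Myc list had 0 of 22 called in the 3 comparisons, with a median of -0.28 from untreated to AAV-GFP, -0.24 from untreated to AAV-hGRβ and -0.04 from AAV-GFP to AAV-hGRβ. At an unadjusted p under 0.05 by limma, 8 of these 22 (7 lower) lay beyond the threshold from untreated to AAV-hGRβ. There were 4 from untreated to AAV-GFP and 3 from AAV-GFP to AAV-hGRβ. Each is a larger share than that of all genes (25.5%, 9.82% and 11.7%). Biogenesis and initiation genes did not share the members' pattern over arrays, with mean pairwise correlations of 0.05 and 0.01.

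The respiratory chain did share it, as did mitochondrial ribosomal proteins more loosely. Of 48 respiratory chain subunits 48 were above 0 from untreated to AAV-GFP, with a median of 0.54, and 46 from untreated to AAV-hGRβ, with a median of 0.43. Within the days their medians between AAV-hGRβ and AAV-GFP were 0.23 and -0.72, close to the members' 0.30 and -0.80. The 78 mitochondrial ribosomal proteins had a median of 0.36 from untreated to AAV-GFP. In both lists limma called 0 genes in the 3 comparisons. At an unadjusted p under 0.05 by limma, 3 of the 48 respiratory chain subunits and 4 of the 78 mitochondrial ribosomal proteins were higher from untreated to AAV-GFP. Over all genes 783 of 16797 were, a share near that of either list. Ranked by correlation with the core mean, the 200 highest genes held 41 members and 19 respiratory chain subunits, with Ndufb9 and Ndufa4, both associated with the respiratory chain, highest among genes outside the set (named after their values were seen).

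Genes of the p53 pathway, which responds to ribosomal stress among other signals, were also measured. Of 11 tested genes of that list, 2 were higher in AAV-hGRβ than in AAV-GFP by limma, where 138 of all 16797 genes were. These were Phlda3 and the cell cycle inhibitor Cdkn1a. Cdkn1a rose by 2.40 (SE 0.39, limma adjusted p 0.0304) and Phlda3 by 2.70 (SE 0.29, limma adjusted p 0.00654). Against untreated liver 5 were higher, where 419 of all 16797 genes were: Phlda3, Cdkn1a, Ccng1, Mdm2 and Pmaip1. Mdm2, the ligase that Rpl5 and Rpl11 bind, differed by 2.24 from untreated liver (limma adjusted p 0.0289) and by 0.87 from AAV-GFP (limma adjusted p 0.457).

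Some markers of T and NK cells and of macrophages were called higher with AAV-hGRβ. Most immune markers did not pass, though all those tested of T and NK cells, macrophages and B cells lay above 0 against AAV-GFP. All 17 hepatocyte markers on the array passed the brightness filter, and 0 were called against AAV-GFP by limma. All 17 lay below 0 in that comparison, with a median of -0.31. At an unadjusted p under 0.05 by limma 7 of them were lower, where 575 of all 16797 genes were. Against untreated liver 1 hepatocyte marker was called lower, where 130 of all 16797 genes were. It was Tat, an enzyme of tyrosine breakdown induced by glucocorticoids, with a difference of -1.28 (SE 0.27, limma adjusted p 0.0437). Of 18 markers of T and NK cells, 4 were called higher against AAV-GFP (Cd8a, Gzma, Gzmb and Nkg7) and 6 against untreated liver. Over all 16797 genes 138 and 419 were. All 18 lay above 0 against AAV-GFP, with a median of 1.45, and 13 were higher at an unadjusted p under 0.05 by limma, where 1393 of all genes were. On the AAV-hGRβ arrays the markers' median deviation ran from 0.59 to 1.49, against -0.69 to -0.23 with AAV-GFP and -1.06 to -0.26 in untreated liver. Of 15 Kupffer cell and macrophage markers 1 was called higher against AAV-GFP (Mpeg1) and 3 against untreated liver. All 15 lay above 0 against AAV-GFP, with a median of 0.50. Of 10 B and plasma cell markers 0 and 1 were called higher in these comparisons, and all 10 lay above 0 against AAV-GFP, with a median of 0.72. All 13 endothelial cell markers lay below 0 against AAV-GFP, with a median of -0.25, and 0 were called. In whole liver, more cells of a type and more RNA per cell cannot be told apart. Among the AAV-hGRβ arrays the T and NK markers were lowest on replicate 2, where the ribosomal protein genes were highest. Both rose from AAV-GFP replicate 1 to 3, the markers at -0.69, -0.58 and -0.23 and the ribosomal protein genes at -0.19, 0.12 and 0.70. In untreated liver both were highest on replicate 2 (-0.26 and 0.28). The part of these cells in the members' values was not tested.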

How the data were processed

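Liver RNA of 9 samples was hybridised to single-colour Agilent arrays after Cy3 labelling, per the labels' protocols. The deposited array files hold processed spot intensity on a linear scale, with the background already subtracted (file headers). The scanner software was Agilent Feature Extraction 9.5, as the submitters' notes on processing state. Intensities in the deposited series table were identical (largest difference 0, column medians 34.2 to 75.6). Per array 54.0% to 82.0% of gene spots exceeded the software's background criterion, and 3 spots in all were saturated.

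Control and outlier spots were left out, spots of a probe averaged, and log2 intensity taken minus the array's 75th percentile. A probe entered the tests if every array of some group met that criterion for it (24273 probes), and each gene was represented by its brightest such probe. Names came from RefSeq tables by accession (22951 probes), symbol (6659) or older symbol (3109), and 8455 probes kept the file's name. Limma 3.58.1 in R 4.3.3 fitted 1 mean per group to all 9 arrays (6 residual degrees of freedom), with Benjamini-Hochberg adjustment over 16797 genes per comparison. The fit was tested on simulated data with independent noise for each gene and array, so that test does not cover the shared movement of genes seen here.

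Members and lists were chosen with earlier results of these data known. Named were the 5 members with the smallest p in each comparison, stalk proteins and Rpsa, paralogues with their parents, Rps19bp1, 7 well-known members, the 3 largest and 3 smallest spreads, and called genes of the lists (at most 4 a list). A member that this rule names is not reported here. Deviations of same-numbered AAV-GFP and AAV-hGRβ arrays correlated at 0.01, 0.24 and 0.01, and the pair at 0.24 also shared a scan day. Numbers were not taken as pairs. Delivered GFP and human receptor sequences were not analysed here.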

Additional observations from a re-analysis of the deposited data

How the results depend on the processing

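The sign of the members' median difference between AAV-hGRβ and AAV-GFP changed with the scaling between arrays, the background correction and the scan day. The median of -0.08 became 0.04 with quantile normalization, -0.42 with arrays centred on their medians (where the median of all genes was -0.32), 0.62 with normexp and, in an alternative chosen after seeing the data, -0.07 with normexp whose bright local backgrounds were replaced. It was 0.30 on scan day 1 alone and -0.80 on scan day 2 alone. From untreated to AAV-hGRβ the median of 0.50 was 0.98 with normexp and -0.37 on scan day 2 alone. Called members in that comparison numbered 1 with normexp and 52 on scan day 1 alone. Leaving out 1 array at a time, the medians ran from -0.28 to 0.17 (AAV-hGRβ versus AAV-GFP, sign turned without AAV-GFP replicate 3 or AAV-hGRβ replicate 1), 0.31 to 0.85 (AAV-GFP versus untreated, lowest without AAV-GFP replicate 3) and 0.33 to 0.80 (AAV-hGRβ versus untreated). Members called then ran from 0 to 3 in the last comparison, 3 without untreated replicate 2, and were 0 in the other 2. No other setting called a member. The cause was not tested.

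With the replicate block 0 members were called in any comparison, with medians of -0.08, 0.56 and 0.48, and same-numbered AAV-GFP and AAV-hGRβ arrays correlated at 0.01, 0.24 and 0.01. Over all genes, calls between AAV-hGRβ and AAV-GFP fell from 151 to 2 and against untreated liver from 549 to 1 under that block. With scan day as a block they were 258 and 1264, with slide as a random block (correlation 0.463) 76 and 59, with normexp 19 and 49, with no filter on dim probes 30 and 84, and on scan day 1 alone 3 and 4772. With arrays centred on their medians 95 genes were called against AAV-GFP (77 higher) and 587 against untreated liver (329 higher, against 419 of 549). Leaving out 1 array gave 40 to 165 and 94 to 2041. Bright local backgrounds replaced gave 882 against untreated liver. For the 31 named members, 103 of 649 values between AAV-hGRβ and AAV-GFP had another sign than the value reported, as did 15 of 649 between AAV-GFP and untreated liver and 52 of 650 between AAV-hGRβ and untreated liver. With 3 arrays a group, standard errors of members ran from 0.16 to 0.53.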
